A study of Homo sapiens with 14 samples.

Results

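S100A2, S100A3, S100A4, S100A6, S100A10, S100A11, S100A13, S100A14 and S100A16 are 9 of the 20033 protein-coding genes of GENCODE 44, and all 9 lie on the minus strand of chromosome 1, in the S100 gene cluster of band 1q21. Binding of the transcription factor KLF4 at these genes was measured by ChIP-seq in BEAS-2B, an established human bronchial epithelial cell line. The genes were chosen from the measured peaks themselves, since the cluster holds KLF4 peaks that occur in every list, so the presence and strength of those peaks are given as a description and not tested. A peak belonged to a gene when its summit lay from 10 kb upstream of the canonical transcription start site (TSS) to 2 kb past the gene end, and each peak was counted once. By this rule 4 of 751 KLF4 peaks lay in the cluster in the WT control list, 16 of 29870 in the WT As3+ list, 28 of 76545 in the Nrf2 KO control list and 2 of 130 in the Nrf2 KO As3+ list.

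The study asked how Nrf2, a transcription factor of the oxidative stress response, affects KLF4 binding when the cells meet arsenic. WT control cells were untreated, WT As3+ cells received 1 µM trivalent arsenic (As3+) for 6 h, and Nrf2 KO control and Nrf2 KO As3+ cells were handled in the same way after CRISPR-Cas9 editing of exon 2 of the Nrf2 gene. Colonies of transfected, blasticidin-selected cells had been sorted by western blot into KO, without detectable Nrf2 protein, and WT, with it, so the WT cells went through the same procedure, and how many colonies made up either is not given in the sources used here. With 1 KLF4 library per condition, differences between conditions could not be set against replicate error, and they were not tested. KLF4 peaks hold neither expression levels nor the edited exon, so the cell type, the knockout and the labels of the KO libraries, whose lists differ most in length, could not be checked here, and every KO value rests on the labels as given.

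S100 proteins are small EF-hand proteins, most of which bind calcium and then change the behaviour of partner proteins, inside the cell and in some cases after secretion. Most of their genes sit side by side in the S100 cluster, next to the epidermal differentiation complex, whose genes build the outer layer of stratified epithelia. Several S100A proteins are abundant in airway and skin epithelium. KLF4 is a zinc finger factor known for its part in the differentiation of epithelia and in pluripotency, and it binds GC-rich sites with a CACCC-like core.

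Both peaks found in all 4 lists lay upstream of a member's TSS, with their summits outside any annotated exon, and the sequences around their median summits are shown because the results turn on them. The peak nearest to S100A14 lies between the S100A14 and S100A13 genes, and the 200 bp around its summit are chr1:153617673-153617872 (GRCh38, minus strand). The peak nearest to S100A2 lies within the S100A2 gene record but upstream of the canonical transcript, and 161 bp free of annotated exons are shown, chr1:153566541-153566701 (minus strand). The stretches at S100A10, an intron 1 peak at chr1:151988602-151988801 and the 200 bp before the TSS at chr1:151993860-151994059, follow for comparison, with the 200 bp before the S100A11 TSS at chr1:152037005-152037204, all read 5′ to 3′ on the minus strand, the strand of the genes. Capitals mark KLF words (CCACACCC or CCACGCCC, or their reverse complements GGGTGTGG and GGGCGTGG), AP-1 words (TGACTCA or TGAGTCA) and the core of the antioxidant response element (TGACNNNGC on either strand), to which Nrf2 is known to bind.
S100A14 shared peak: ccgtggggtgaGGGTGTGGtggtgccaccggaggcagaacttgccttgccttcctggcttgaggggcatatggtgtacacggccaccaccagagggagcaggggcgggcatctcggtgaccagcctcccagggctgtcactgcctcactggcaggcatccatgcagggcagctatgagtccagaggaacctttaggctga
S100A2 shared peak: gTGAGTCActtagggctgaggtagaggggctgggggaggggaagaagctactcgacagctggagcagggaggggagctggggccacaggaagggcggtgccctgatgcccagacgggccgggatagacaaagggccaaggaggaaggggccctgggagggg
S100A10 intron 1 peak: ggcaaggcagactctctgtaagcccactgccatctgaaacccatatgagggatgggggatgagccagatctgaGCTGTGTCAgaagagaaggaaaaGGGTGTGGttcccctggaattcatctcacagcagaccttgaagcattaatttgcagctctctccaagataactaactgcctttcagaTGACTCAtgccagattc
S100A10 upstream: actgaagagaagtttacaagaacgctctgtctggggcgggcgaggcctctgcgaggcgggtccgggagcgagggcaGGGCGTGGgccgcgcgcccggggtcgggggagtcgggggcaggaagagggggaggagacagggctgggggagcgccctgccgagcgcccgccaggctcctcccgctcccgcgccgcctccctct
S100A11 upstream: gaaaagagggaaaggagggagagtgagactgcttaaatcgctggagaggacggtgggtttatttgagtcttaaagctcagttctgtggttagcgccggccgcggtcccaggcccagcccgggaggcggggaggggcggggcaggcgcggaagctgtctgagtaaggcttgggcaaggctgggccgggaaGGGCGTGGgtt

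The strongest KLF4 peak of the cluster in each of the 4 libraries lay upstream of S100A14, which encodes an epithelial S100 protein, in the windows of S100A14, S100A16 and S100A13 at once. Its summit was placed within a span of 43 bp by the 4 libraries, 1419 to 1462 bp upstream of the canonical S100A14 TSS. Fold enrichment is the signal at the summit over the local background, as the authors give it, and fragments are the sequenced DNA pieces covering the summit, solved here from the fold and the p-value. The WT control library had 67 fragments over the summit (95% Poisson interval 51.9 to 85.1) and a fold of 11.6. The WT As3+ library had 88 fragments (70.6 to 108) and a fold of 26.9. The Nrf2 KO control library had 52 fragments (38.8 to 68.2) and a fold of 21.2, and the Nrf2 KO As3+ library had 49 (36.3 to 64.8) and a fold of 8.97. WT As3+ was thus highest in both measures and Nrf2 KO As3+ lowest, and WT control stood above Nrf2 KO control by fragments but below it by fold. The intervals of the KO libraries overlapped for most of their length, whereas their folds were 21.2 and 8.97. Those of the WT libraries overlapped in part. All intervals cover counting error only.

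The local background under this peak differed among the libraries. It was 4.84 fragments in WT control, 2.31 in WT As3+, 1.50 in Nrf2 KO control and 4.57 in Nrf2 KO As3+, and the lowest background anywhere in these lists ran in a like order, at 1.90, 0.757, 0.491 and 1.64. A lower background gives a higher fold for the same fragments and lets weaker sites pass the threshold of a list. Its part in the differences between libraries was not tested, and it stands beside every count of peaks below. Within its own list the peak ranked 3 by fold in WT control, 6 in WT As3+, 7 in Nrf2 KO control and 4 in Nrf2 KO As3+.

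S100A2, whose protein is known as a calcium-dependent partner of p53 in basal epithelial cells, had the second peak found in every list. Summits lay 779 to 824 bp upstream of its canonical TSS, within 45 bp of each other and 51.1 kb from the S100A14 peak. WT control had 40 fragments there (28.6 to 54.5) and a fold of 7.52. WT As3+ had 57 fragments (43.2 to 73.9) and a fold of 18.6. Nrf2 KO control had 33 fragments (22.7 to 46.3) and a fold of 13.6, and Nrf2 KO As3+ had 22 (13.8 to 33.3) and a fold of 4.13. The 4 libraries stood in the same order of fold as at S100A14, and every library had fewer fragments here than there. By rank the peak was 38 in WT control, 32 in WT As3+ and 34 in Nrf2 KO control, but 95 of 130 in Nrf2 KO As3+, where its −log10 q was 3.84.

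Relative to the WT control library, fragments at the S100A2 peak stood at 1.43 times in WT As3+, 0.825 in Nrf2 KO control and 0.55 in Nrf2 KO As3+. At the S100A14 peak the same ratios were 1.31, 0.776 and 0.731. In the whole genome 46 Nrf2 KO As3+ peaks overlapped a peak of each other list. Some neighbouring ones overlapped the same peak of another library and were counted separately. Some of the 46, on chromosomes 13 and 16, had many fragments but a low fold, such as 174 fragments and a fold of 1.80 in WT control. They were kept in the medians and ranks. The median ratios of the 46 were 0.983, 0.639 and 0.763. Among these 46, the S100A2 peak ranked 11 for the WT As3+ ratio and 39 for the Nrf2 KO As3+ ratio, and the S100A14 peak ranked 15 and 27. For the Nrf2 KO control ratio they ranked 17 and 20. Both peaks thus lay above the median of the 46 in WT As3+ and in Nrf2 KO control. In Nrf2 KO As3+ they lay below it, where S100A14 was close to it. These ratios come from single libraries of unequal background, and their differences were not tested.

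**Figure D1:**
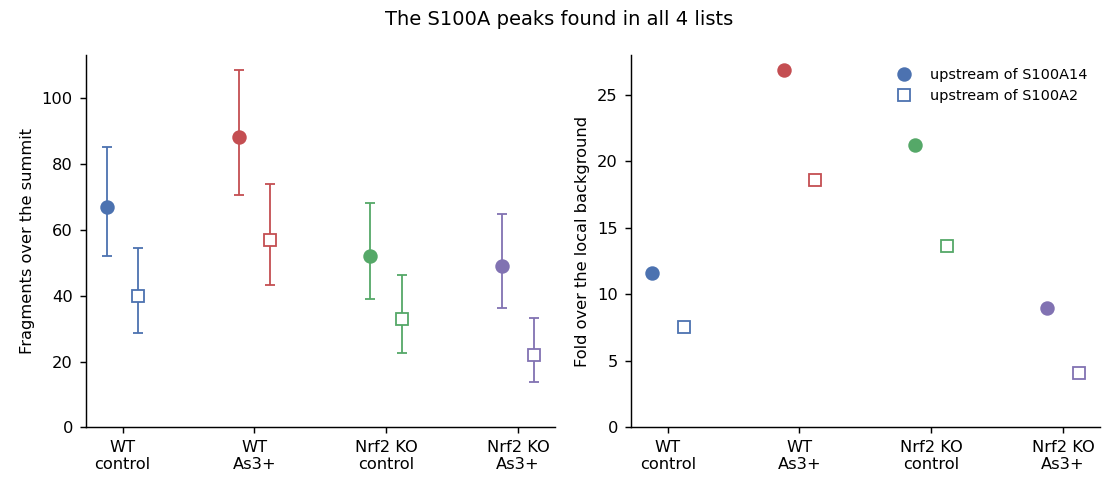
KLF4 signal at the peaks upstream of S100A14 (filled circles) and S100A2 (open squares) in the 4 libraries, 1 library per condition. The left axis gives fragments over the summit with 95% Poisson intervals for counting error, the right axis gives fold over the local background, and WT As3+ is highest and Nrf2 KO As3+ lowest in both, while WT control is above Nrf2 KO control by fragments and below it by fold.

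S100A14, S100A16 and S100A13 share an upper block of windows, chr1:153604886-153637505, which held 1, 7, 12 and 1 peaks in WT control, WT As3+, Nrf2 KO control and Nrf2 KO As3+. S100A16 is a broadly expressed member of the family, and S100A13 is known to help release FGF1, a growth factor without a signal peptide. Beside the shared peak, 2 places of this block had a peak in WT As3+ and Nrf2 KO control alike. One lay in intron 1 of S100A16, with a fold of 4.85 and 10 fragments in WT As3+ and of 4.94 and 8 fragments in Nrf2 KO control. The other lay in intron 1 of S100A13, 273 to 277 bp downstream of its TSS, with a fold of 4.90 and 12 fragments in WT As3+ and of 5.30 and 10 fragments in Nrf2 KO control. At the S100A16 start, 136 bp upstream of the TSS, a peak with a fold of 6.50 and 12 fragments was listed in Nrf2 KO control only. Toward the upper end of the S100A13 window the peaks lay in S100A1 and CHTOP, whose own start sites were nearer, as was the case for 6 of the 36 places in the cluster. The other 30 had a member's TSS as the nearest protein-coding start.

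**Figure D2:**
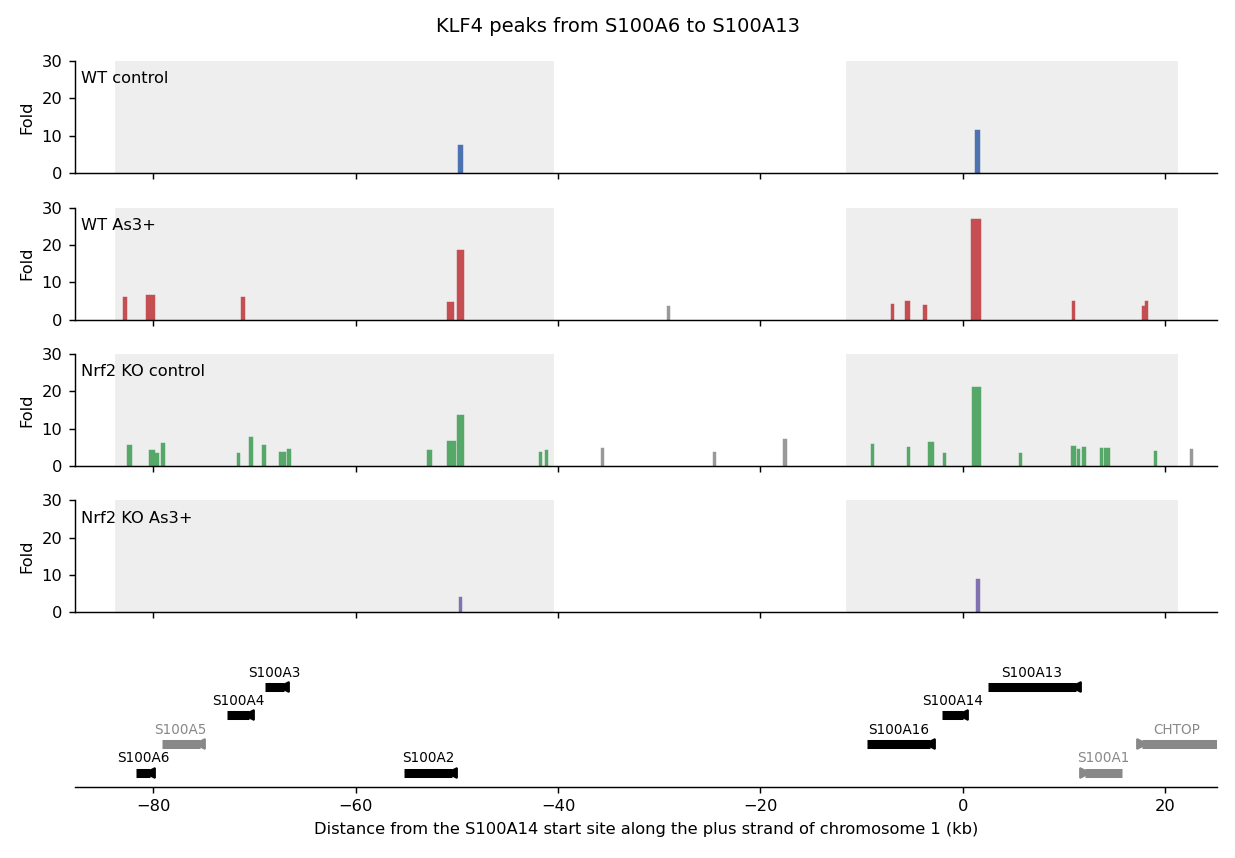
KLF4 peaks of the 4 libraries from S100A6 to S100A13, with the distance from the S100A14 TSS in kb on the horizontal axis and fold over the local background on the vertical axes. Grey bands are the windows of the members, coloured bars are peaks inside them, grey bars are peaks outside, black genes are members, grey genes are other protein-coding genes and arrowheads mark start sites. The 2 places with a bar in all 4 tracks are the S100A2 and S100A14 peaks.

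S100A10 had peaks in 3 lists and none in Nrf2 KO As3+. Its product, also called p11, forms a complex with annexin A2 at the plasma membrane. Around its TSS the WT control peak had a fold of 4.67 with 24 fragments (15.4 to 35.7), the WT As3+ peak a fold of 10.3 with 33 fragments (22.7 to 46.3), and the Nrf2 KO control peak a fold of 8.11 with 15 fragments (8.40 to 24.7). Their summits did not coincide, since those of the WT libraries lay 120 and 160 bp downstream of the TSS, in intron 1, and that of Nrf2 KO control 130 bp upstream. The KLF word of the printed upstream stretch, GGGCGTGG, lay 117 to 124 bp upstream of the TSS, 6 bp from the Nrf2 KO control summit and 237 and 277 bp from those of WT control and WT As3+. Another KLF word lay downstream of the TSS, at chr1:151993587-151993594, on the side of the WT summits. It was 145 bp from the median summit of these peaks, which is that of WT control. A further intron 1 peak, 5155 to 5158 bp downstream of the TSS, was listed in both WT libraries and in neither KO library. It had 32 fragments and a fold of 4.30 in WT control and 19 fragments and a fold of 5.47 in WT As3+. Of the 36 places it was the only one with peaks in both WT lists and no KO list. Lack of a KO peak was common in WT control. Of its whole list, 52.2% overlapped the Nrf2 KO control list and 7.59% the Nrf2 KO As3+ list. Of its 4 cluster peaks, 3 and 2 did. Another S100A10 peak of WT As3+, with a fold of 5.80 and 26 fragments, lay 1188 bp downstream of the TSS and was in no other list.

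S100A11 encodes an annexin A1 partner known from the cornified envelope of keratinocytes. In WT As3+ its peak sat at the canonical start itself, 1 bp from the TSS and 5 bp from the KLF word of the printed stretch, with a fold of 5.45 and 16 fragments (9.15 to 26.0). In Nrf2 KO control the overlapping peak had its summit 632 bp downstream, in intron 1, with a fold of 5.10 and 13 fragments (6.92 to 22.2). Neither WT control nor Nrf2 KO As3+ had a peak in the S100A11 window. Just outside the window both libraries with a peak had another, 1364 bp past the edge in WT As3+ with a fold of 4.66 and 1291 bp past it in Nrf2 KO control with a fold of 4.27. These lie just beyond the upper end of the S100A11 gene record, which reaches farther upstream than the canonical transcript.

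**Figure D3:**
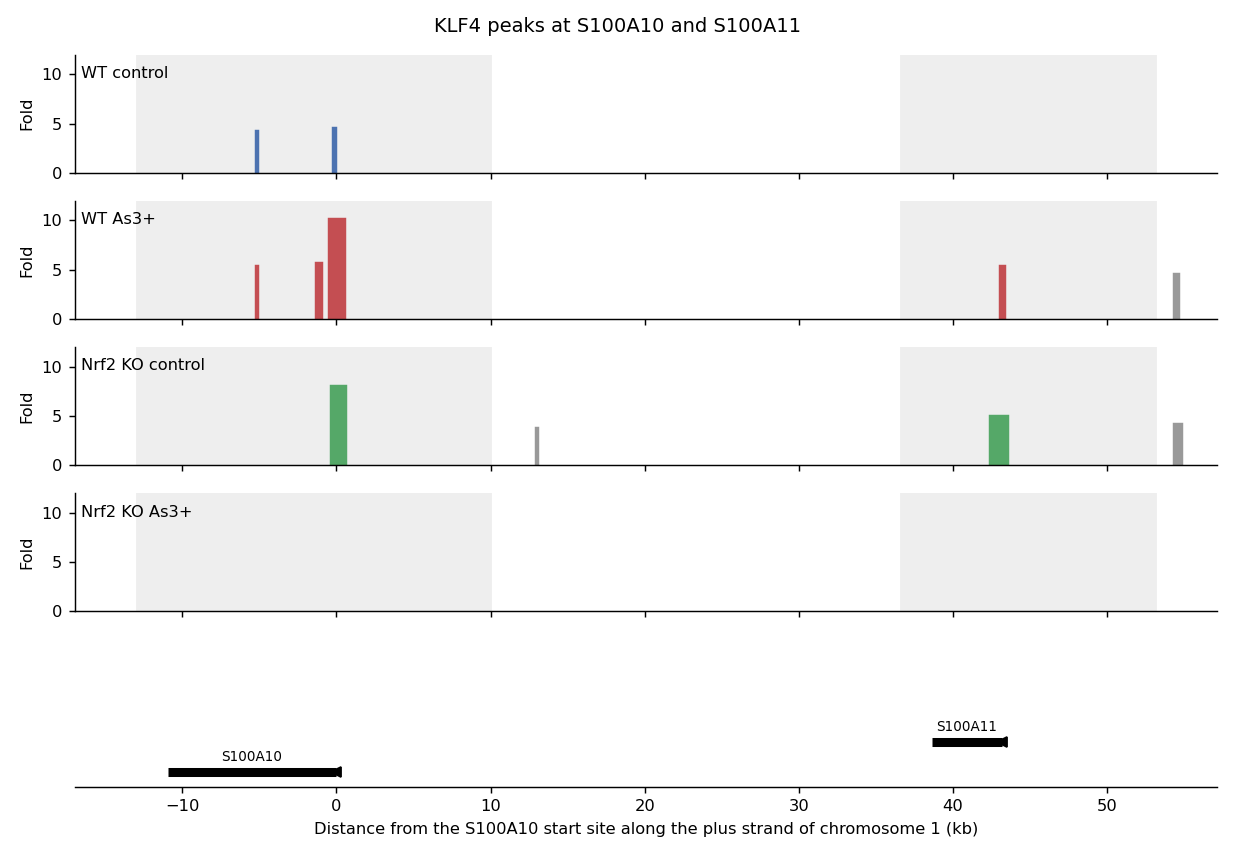
KLF4 peaks of the 4 libraries at S100A10 and S100A11, with the distance from the S100A10 TSS in kb on the horizontal axis and fold over the local background on the vertical axes, drawn as in the map of S100A6 to S100A13. At the S100A10 start 3 libraries have a bar, 2 have one at S100A11, and Nrf2 KO As3+ has none.

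S100A6, S100A4 and S100A3 had peaks in at most 2 lists. S100A6 (calcyclin) was named for its rise in cycling cells, S100A4 is known for binding non-muscle myosin and for its link with metastasis, and S100A3 is best known from the hair cuticle. S100A6 had 3 peaks in its window in WT As3+ and 6 in Nrf2 KO control, and the WT As3+ peak at its start, 176 bp upstream of the TSS, had a fold of 6.68 and 17 fragments. An overlapping Nrf2 KO control peak 287 bp upstream had a fold of 4.29 and 8 fragments. S100A4 had 1 WT As3+ peak, in its intron 1, with a fold of 6.07 and 17 fragments, and 5 Nrf2 KO control peaks. The highest of those 5 lay 122 bp upstream of the S100A4 TSS, with a fold of 7.65 and 16 fragments, and counted in the windows of S100A6 and S100A3 as well. S100A3 was the only member whose peaks, 4 in number, were confined to Nrf2 KO control, and the one at its start, 25 bp upstream of the TSS, had a fold of 3.81 and 9 fragments. WT control and Nrf2 KO As3+ listed no peak in the windows of these 3 genes. Where no peak is listed, a weaker one may have missed the threshold.

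Counted over the 9 genes, 5 had a peak in their window in WT control, beside 2.30% of all protein-coding genes by the same rule. In WT As3+ it was 8 of 9 beside 65.2%, in Nrf2 KO control 9 of 9 beside 80.0%, and in Nrf2 KO As3+ 4 of 9 beside 0.404%. In the long lists a gene with a peak is the usual case, so the counts of 8 and 9 say little about these genes, and in the short lists the counts are what the choice of genes rests on. Within 2 kb of the TSS, 3 members had a peak in WT control (0.794% of all protein-coding genes), 8 in WT As3+ (52.5%), 9 in Nrf2 KO control (67.5%) and 2 in Nrf2 KO As3+ (0.195%). Genes with a window peak in all 4 lists numbered 43 of 20033 (0.215%), of which 4 were members. Of those 4, S100A16, S100A14 and S100A13, owe it to 1 and the same peak.

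**Figure D4:**
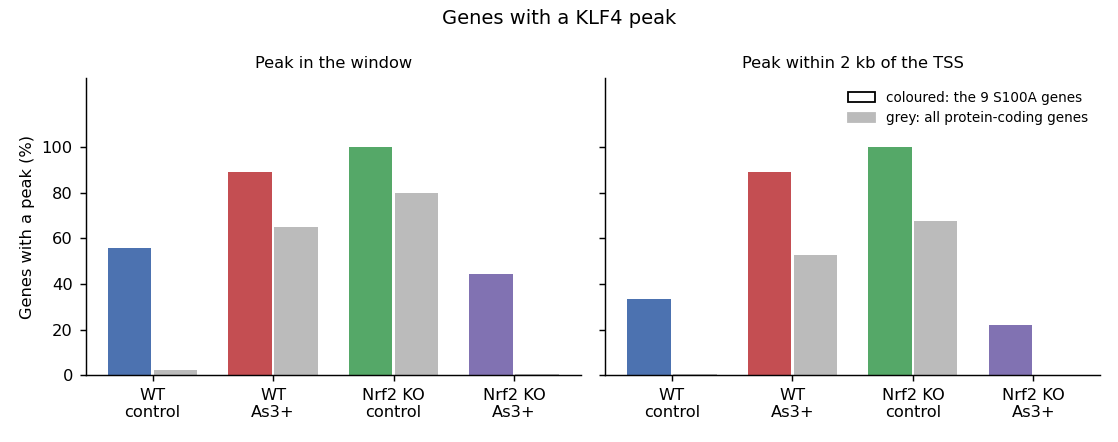
Share of the 9 S100A genes (coloured bars) and of all 20033 protein-coding genes (grey bars) with a KLF4 summit in their window (left) or within 2 kb of the TSS (right), in percent, for each library. Grey bars are high in WT As3+ and Nrf2 KO control, at 65.2% and 80.0% in the left panel, and close to 0 in the other libraries.

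Peaks of the cluster windows, which span 115 kb in 4 blocks, came to 34.7 per Mb in WT control (95% Poisson interval 9.45 to 88.8), 139 in WT As3+ (79.3 to 225), 243 in Nrf2 KO control (161 to 351) and 17.3 in Nrf2 KO As3+ (2.10 to 62.7). Windows of all protein-coding genes held 0.334, 16.8, 40.5 and 0.0555 per Mb in the same order. The 1.49 Mb between the S100A11 and S100A6 windows, which holds 52 protein-coding genes including the epidermal differentiation complex, had 0, 5, 27 and 0 peaks, or 3.37 per Mb in WT As3+ and 18.2 in Nrf2 KO control. The cluster was chosen for its peaks, and its genes are short, with 12.8 kb of window per gene beside 67.5 kb over all protein-coding genes. Per gene, the cluster held 1.78 peaks in WT As3+ and 3.11 in Nrf2 KO control, beside 1.14 and 2.73 over all protein-coding genes.

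The 50 peaks of the 4 lists fell on 36 separate places. Of these, 2 had a peak in 4 lists, 1 in 3, 6 in 2 and 27 in 1 list only, namely 20 in Nrf2 KO control and 7 in WT As3+. The 20 places of Nrf2 KO control alone had folds of 3.37 to 7.65 (median 4.45) and rested on 5 to 16 fragments (median 8), and 5 of them had a −log10 q of at least 5. The 7 places of WT As3+ alone had folds of 3.63 to 6.07 (median 4.83) and rested on 11 to 26 fragments (median 15), and 4 of them passed it.

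All 4 WT control peaks overlapped a WT As3+ peak, as did 85.6% of the whole WT control list. Of the 16 WT As3+ peaks, 8 (50%) shared bases with the Nrf2 KO control list, with a 95% Clopper-Pearson interval of 24.7% to 75.3%, and 55.6% of the whole WT As3+ list did. Those 8 made up 28.6% of the 28 Nrf2 KO control peaks (13.2% to 48.7%), beside 21.7% of the whole Nrf2 KO control list. In both directions the share of the list lay within the interval of the cluster. Both Nrf2 KO As3+ peaks overlapped a peak of every other library, and the cluster was chosen for such peaks. They are also among the overlapping peaks counted above. Of the whole Nrf2 KO As3+ list, 43.8% overlapped the WT control list, 60% the WT As3+ list and 51.5% the Nrf2 KO control list.

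**Figure D5:**
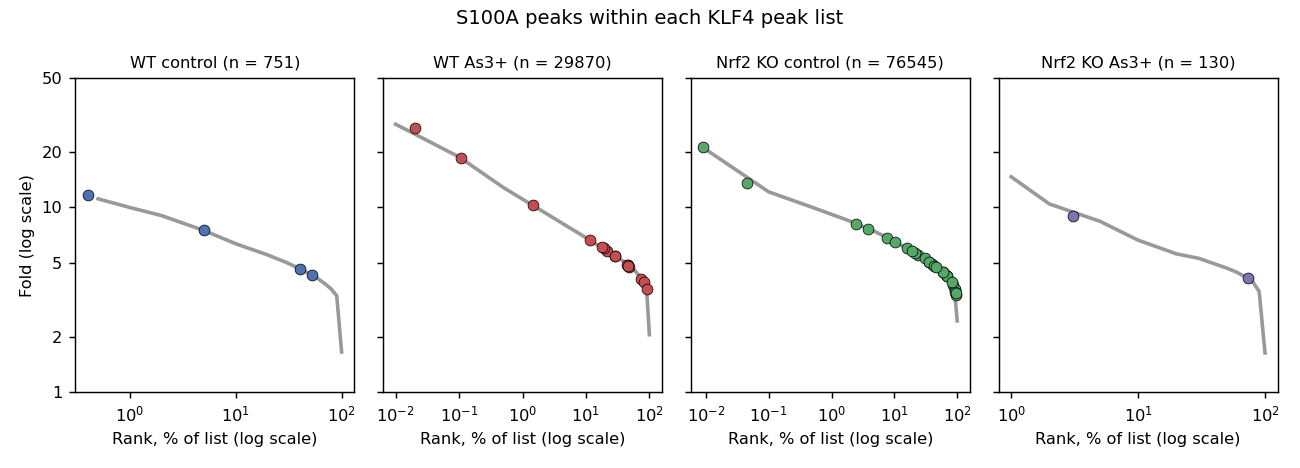
Fold of the cluster peaks (points) against their rank by fold, in percent of the list on a log scale, for each library. The grey line is the fold of the whole list at that rank. In every library the S100A14 peak lies farthest to the left, at ranks 3, 6, 7 and 4, and most other cluster peaks of WT As3+ and Nrf2 KO control lie in the body of the list.

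The words marked in the printed sequences were counted within 200 bp centred on each summit. A KLF word lay in 5 of the 16 WT As3+ cluster peaks, or 31.3% (11.02% to 58.7%), beside 10.3% of that list, and in 3 of the 28 Nrf2 KO control peaks, or 10.7% (2.27% to 28.2%), beside 9.27%. AP-1 words lay in 4 of 16 WT As3+ peaks, or 25% (7.27% to 52.4%), beside 4.33%, and in 2 of 28 Nrf2 KO control peaks, or 7.14% (0.877% to 23.5%), beside 2.54%. The antioxidant response element core lay in 4 of 16 WT As3+ peaks beside 9.36% of the list, and in 3 of 28 Nrf2 KO control peaks beside 9.17%. In WT control 1, 2 and 2 of 4 peaks held the KLF, AP-1 and response element words, and in Nrf2 KO As3+ 1, 1 and 0 of 2. For WT As3+ the share of the list lay below the interval of the cluster for the KLF and AP-1 words and within it for the response element. The last of these statements and the one on AP-1 words did not hold for every window length. In 100 and 400 bp windows the AP-1 share of the list, 1.99% and 7.77%, lay within the interval of the cluster, and in 400 bp windows that of the response element, 17.6%, lay below it. These counts are few and are not a test. They include the S100A14 peak with its KLF word and the S100A2 peak with its AP-1 word, for which the cluster was chosen. The exception is the KLF count of WT control, whose S100A14 summit left that word outside the 200 bp. A match in letters is a description, not a site.

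Each shared peak had words of its own. The S100A14 sequence carried 1 KLF word, 81 bp from the median summit, and no AP-1 word. In the S100A2 sequence there was no KLF word within 200 bp of the summit, and AP-1 words lay 53 and 91 bp from it, the second of them inside a response element core, TGACTCAGC, and beyond the printed stretch in an annotated exon (chr1:153566732-153566740). The S100A10 intron 1 sequence carried all 3 kinds, a KLF word over the median summit, a response element core 18 bp from it and an AP-1 word 84 bp from it.

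The same words were also counted at the promoters. RefSeq promoter sequences (250 bp before to 50 bp after the start, GRCh38) were matched for all 9 genes, with 13 start sites. A KLF word was found in 2 of these 13, at S100A10 and S100A11, and in 8.05% of all 35116 promoters. AP-1 words were found in 2 of the 13, at S100A2 and S100A3 (4.95% of all). The response element core was found in 3 of the 13, at S100A13, S100A14 and S100A16 (13.3% of all).

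GC content in the 200 bp around the summits had a median of 65% for the cluster peaks of WT control (list 57%), 64% in WT As3+ (64.5%), 60.8% in Nrf2 KO control (61.5%) and 65.5% in Nrf2 KO As3+ (51%). Cluster peaks thus resembled their list in the long lists. In WT control and Nrf2 KO As3+ the cluster medians lay above those of the list. They rest on 4 and 2 peaks, which include those the cluster was chosen for, so no conclusion is drawn from them.

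Relatives and partners of the 9 genes were counted by the same rule. Among 8 other S100 genes of the cluster, of which 1, S100A7L2, is a pseudogene and so not in the protein-coding background, 0, 2, 5 and 0 had a window peak in WT control, WT As3+, Nrf2 KO control and Nrf2 KO As3+. Their WT As3+ peaks, at S100A1 and S100A5, were ones already counted in the windows of S100A13, S100A6 and S100A4. Of 4 S100 genes elsewhere in the genome, S100B among them, 0, 1, 3 and 0 had a peak, and of 11 genes of the epidermal differentiation complex, FLG (filaggrin) among them, 0, 1, 4 and 0. The background shares above, 65.2% in WT As3+ and 80.0% in Nrf2 KO control, are those to read these counts against. Among 9 known binding partners 1, 5, 7 and 0 had a peak. The 1 with a peak in 3 lists was ANXA2 on chromosome 15, the annexin that pairs with S100A10. It had 3 peaks in WT control, 6 in WT As3+ and 4 in Nrf2 KO control. The peak with the highest −log10 p had a fold of 4.61, 11.5 and 7.16 in these libraries. S100A10 and ANXA2 were thus listed in the same libraries, each without a peak in Nrf2 KO As3+, where only 0.404% of protein-coding genes had one. Peaks in WT As3+ and Nrf2 KO control are the usual case, so the match rests on WT control, where 2.30% had one. ANXA2 was 1 of 9 partners looked at and is a longer gene than S100A10, and the match was not tested. ANXA1, the partner of S100A11, had no peak in any list, whereas S100A11 had one in WT As3+ and in Nrf2 KO control.

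The genes whose peaks were most like the S100A14 peak were sought among protein-coding genes outside the cluster with a window peak in all 4 lists, by the distance in log10 fragments over the 4 libraries. They were LEMD2 (distance 0.228), CALCOCO1 (0.243), NBAS (0.278), DDX1 (0.301) and TRIOBP (0.375). LEMD2, on chromosome 6, had 53, 59, 57 and 39 fragments in WT control, WT As3+, Nrf2 KO control and Nrf2 KO As3+, beside 67, 88, 52 and 49 at S100A14. Unlike the S100A14 peak, CALCOCO1 had its highest number in WT control, at 85, with 77, 39 and 33 in the other libraries.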

How the data were processed

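KLF4 ChIP-seq peak lists of 4 libraries, 1 per condition, were used out of 14 samples. The histone mark and input libraries were left out, since the KLF4 lists are the subject. Groups followed the sample labels, which could not be checked in the peak lists. Reads had been mapped by the authors to GRCh38/hg38 using BWA, and the submitters' processing notes name bcl2fastq 2.17. The program that called the peaks is not given in the sources used here, and although tags were randomly sampled down to the smallest sample, the methods do not say whether this preceded peak calling. Each deposited list holds a score (10 times the −log10 q), a fold at the summit, which the authors give as a ratio over the local background, a −log10 p and a −log10 q, and an offset of the summit from the peak start, another deposited value. The lowest deposited −log10 q was 1.00 to 1.03.

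Fragments and background were solved from the deposited fold and −log10 p, with fold as (fragments + 1)/(background + 1) and p as a Poisson upper tail, with a misfit of at most 0.000405 in −log10 p. The median fragments over a summit, which set the precision of a single peak, were 25, 10, 7 and 19 in WT control, WT As3+, Nrf2 KO control and Nrf2 KO As3+. Library totals were not used here. Peaks on unplaced contigs (9, 86, 223 and 10) were left out. Genes came from GENCODE 44 with Ensembl canonical transcripts, and sequences from the hg38 genome and RefSeq promoters (13 of 13 equal to the genome). Overlap meant 1 bp in common. Intervals are exact at 95% (Poisson, Clopper-Pearson) and cover counting error only. All 9 members are named, genes of the other lists only with a peak in 3 or 4 lists or as 1 of at most 2 examples, and the 5 most like genes by distance to the member whose peak ranks highest in WT control. S100A1, S100A5 and CHTOP are named for their position. The members, lists and rules were chosen with earlier results of these data known. Alternatives were a stricter −log10 q of 5, other window and TSS limits, other overlap and motif windows. Steps were tested on simulated data. Python 3.11.15, numpy 2.4.6, scipy 1.17.1 and matplotlib 3.10.9 were used.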

Additional observations from a re-analysis of the deposited data

Results flagged for a closer look

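With As3+ the peak counts of the cluster and the folds at its S100A2 and S100A14 peaks were higher in WT and lower in Nrf2 KO than in the control library. The median fold over all cluster peaks went the other way, from 6.09 to 5.46 in WT and from 4.89 to 6.55 in Nrf2 KO. These medians are over different sets of peaks, 4 and 16 in WT and 28 and 2 in Nrf2 KO. The 2 of Nrf2 KO As3+ are the S100A2 and S100A14 peaks, for which the cluster was chosen. So the medians do not show that folds at the same places moved that way. As3+ minus control, the number of cluster peaks was 12 in WT and -26 in Nrf2 KO, and the number of members with a peak was 3 and -5. Whole lists moved the same way, from 751 to 29870 peaks in WT and from 76545 to 130 in Nrf2 KO, and protein-coding genes with a window peak from 2.30% to 65.2% and from 80.0% to 0.404%. As a share of the list, the cluster peaks went the other way, from 0.533% to 0.0536% in WT and from 0.0366% to 1.54% in Nrf2 KO. At the S100A2 peak the fold differed by 11.1 in WT and by -9.48 in Nrf2 KO, and at the S100A14 peak by 15.2 and -12.2, although fragments there were 52 and 49 in the Nrf2 KO libraries, with overlapping intervals. The fragment intervals of control and As3+ overlapped at both peaks in WT as well as in Nrf2 KO. Each of these opposite directions rests on 1 library per condition and was not tested, and the labels of the KO libraries could not be checked. The lowest background of the libraries moved with them, from 1.90 to 0.757 fragments in WT and from 0.491 to 1.64 in Nrf2 KO, and its part in the differences was not tested.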

How the results depend on the processing

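Of 96 values under alternative settings, 11 moved beyond the counting interval of a share or beyond 1.5 times a count, and 85 did not. In the short WT control list values could shift far within that interval, the KLF share to 75% in 400 bp windows, the AP-1 share to 25% in 100 bp windows and the share of the list to 0.924% at a −log10 q of at least 5. With only peaks of this −log10 q, cluster peaks numbered 10 in WT As3+, 10 in Nrf2 KO control and 1 in Nrf2 KO As3+, with 0.105% and 0.0619% of the WT As3+ and Nrf2 KO control lists in the cluster. Under the same limit 1 member, S100A14, kept a peak within 2 kb of its TSS in Nrf2 KO As3+, whereas with a TSS limit of 1 kb the 1 member was S100A2, and 1 place, at S100A14, had a peak in all 4 lists. The Nrf2 KO As3+ peak at S100A2 is thus the one that the threshold decides. In 100 bp motif windows the AP-1 share of WT As3+ was 6.25%, and the KLF and AP-1 shares of Nrf2 KO As3+ were 0. No paired analysis was possible because each condition has 1 library, and none could be left out for the same reason. The 20 places found in Nrf2 KO control alone rest on a median of 8 fragments, and the depth of the libraries was not measured.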
